A study of Homo sapiens with 2 samples.

Results

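BCL11A, the gene on chromosome 2 whose zinc finger protein represses the fetal globin genes, was described through its called transcription start positions in wild-type HUDEP-2 cells. The locus was taken as the gene body (chr2:60450520-60553924, hg38, reverse strand) plus 100 kb on each side, and every called position in it was used. It held 6 of the 26395 calls in the series. The calls came from PRO-cap, in which nuclei extend their nascent transcripts with biotin-labelled nucleotides and the 5′ ends of the captured RNA are sequenced. It was run on 2 biological replicates of 1 group, wild-type cells without any treatment given in the labels. HUDEP-2 is a single human erythroid progenitor line that was immortalised with viral oncogenes from umbilical cord blood and makes mainly adult haemoglobin. The call lists name no replicate, whether they combine both is not known, and the deposited score is 0 for every call, so that neither a depth per call nor a replicate spread is known.

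BCL11A recruits corepressor complexes to the gamma-globin promoters, and lowering it in red cell precursors raises fetal haemoglobin. The gene is transcribed from the high to the low coordinate. Its erythroid expression depends on an enhancer in an intron, made of 3 DNase hypersensitive sites named +55, +58 and +62 for their distance in kb from the start of the gene. These sites are bound by the erythroid factors GATA1 and TAL1. Disruption of a GATA1 motif in the +58 site by genome editing lowers BCL11A in erythroid cells and is used to treat sickle cell disease and beta thalassaemia. Active promoters and enhancers often start RNA on both strands, which a start assay reads as a pair of calls that point away from each other.

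Of the 5 starts that RefSeq places in BCL11A (GRCh38.p14), 1 coincided with a call. The sequences of this start, 3017 bp into the gene, and of the outermost start, which had no call, are shown because they carry the contrast between a called and an uncalled annotated promoter of the gene. Each runs 5′ to 3′ on the reverse strand over 280 bases, from 250 before the annotated start to 30 from it on, and the capitals mark the annotated start and the base before it.
Called start at 60550907 (chr2:60550878-60551157): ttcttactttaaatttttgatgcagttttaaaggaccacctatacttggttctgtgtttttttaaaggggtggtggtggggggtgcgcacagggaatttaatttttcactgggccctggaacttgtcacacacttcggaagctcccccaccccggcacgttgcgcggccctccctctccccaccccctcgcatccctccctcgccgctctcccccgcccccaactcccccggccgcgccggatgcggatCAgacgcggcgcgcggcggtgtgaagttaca
Outermost start at 60553924, uncalled (chr2:60553895-60554174): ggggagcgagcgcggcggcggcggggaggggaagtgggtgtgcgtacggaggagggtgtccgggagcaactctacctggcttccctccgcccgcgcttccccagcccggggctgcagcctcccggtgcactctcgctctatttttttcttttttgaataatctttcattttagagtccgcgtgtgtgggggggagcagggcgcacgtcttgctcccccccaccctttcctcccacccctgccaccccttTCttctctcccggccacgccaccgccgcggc

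The call lay at 60550908, on the first capital of the called sequence, 1 bp upstream of the annotated start. Over all genes 12.5% (12.2 to 12.8) of 34961 annotated starts had a sense call within 10 bp and 7.75% (7.48 to 8.04) within 1 bp. The called base was a C and the next base, the annotated start, an A. Cytosine followed by adenine is the core of the common initiator of RNA polymerase II. Among the 3723 reverse calls that fell in a RefSeq promoter window of their own strand, 37.4% (95% Wilson interval 35.9 to 39.0) had C at the called base and A at the next. The share was 37.5% (36.0 to 39.1) of 3864 forward calls. C and A stood at the base before and at the called base itself in 1.10% of the reverse and 1.63% of the forward calls, and CA made up 6.33% of all neighbouring base pairs in the promoter windows. The BCL11A call therefore had the commoner of these placements, with the deposited position 1 base before the A. This placement prevailed on both strands of the lists and is not particular to BCL11A. Whether the deposited positions lie 1 base upstream by a convention of the caller is not known. Of the 4368 annotated starts of all genes with a sense call within 10 bp, 35.6% had it at 1 bp upstream, as BCL11A did, and 20.5% had it on the start itself.

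In base composition the called start lay within the range of the uncalled ones. G and C made up 61.0% of the 300 bases around the called start, against 67.0% at the outermost start, 69.3% at the start 270 bp into the gene, 53.0% at the start 1210 bp into it and 51.7% at the start 25.4 kb into it. The median over 35116 RefSeq promoter windows was 58.7% (quartiles 47.0 and 68.0). The called window held 24 CpG dinucleotides and the outermost 27, with a median of 14 over all windows. Motifs were searched on both strands in these windows. TATAAA, the TATA box, was in none of the 5 windows and in 11.5% of all windows. AGATAA, bound by erythroid factors of the GATA family, was in none of the 5 and in 10.3% of all. GGGCGG, the GC box, occurred once in the called window, 37 bp before the start, and in 45.0% of all windows. CACCC, the core of the KLF1 motif, occurred 4 times in the called window and 5 times in the outermost. It was present in 59.9% of all windows, and its copies per window were not compared with those of other windows. CACCC can overlap other GC-rich motifs. These matches describe the letters only.

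Transcription in the sense direction was called at 3 positions, all in the first 5 kb of the gene. The outermost of them lay at 60552072, 1852 bp into the gene and 642 bp downstream of the nearest annotated start. The call at 60550908 lay 3016 bp into the gene, on the annotated start shown above. The innermost lay at 60549550, 4374 bp into the gene and 1357 bp downstream of that start. Neighbouring sense calls were 1164 and 1358 bp apart, and the smallest distance between same-strand calls in the lists was 251 bp. None of the 3 lay within 500 bp of the outer 5′ end, and the nearest was 1582 bp from the annotated start at 60553654. Of 15813 protein-coding genes with a strand in the promoter table, 42.9% (42.2 to 43.7) had a sense call within 500 bp of the outer 5′ end, so that BCL11A was among the majority without one. A call within 500 bp of any start in the promoter table was found for 47.0% (46.3 to 47.8) of these genes, and BCL11A was among them. Of the 2453 genes with more than 1 such start and no call at the outer end, 22.4% (20.8 to 24.1) had a call within 500 bp of another start, and 11.9% (10.7 to 13.3) within 10 bp, as BCL11A had.

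**Figure D1:**
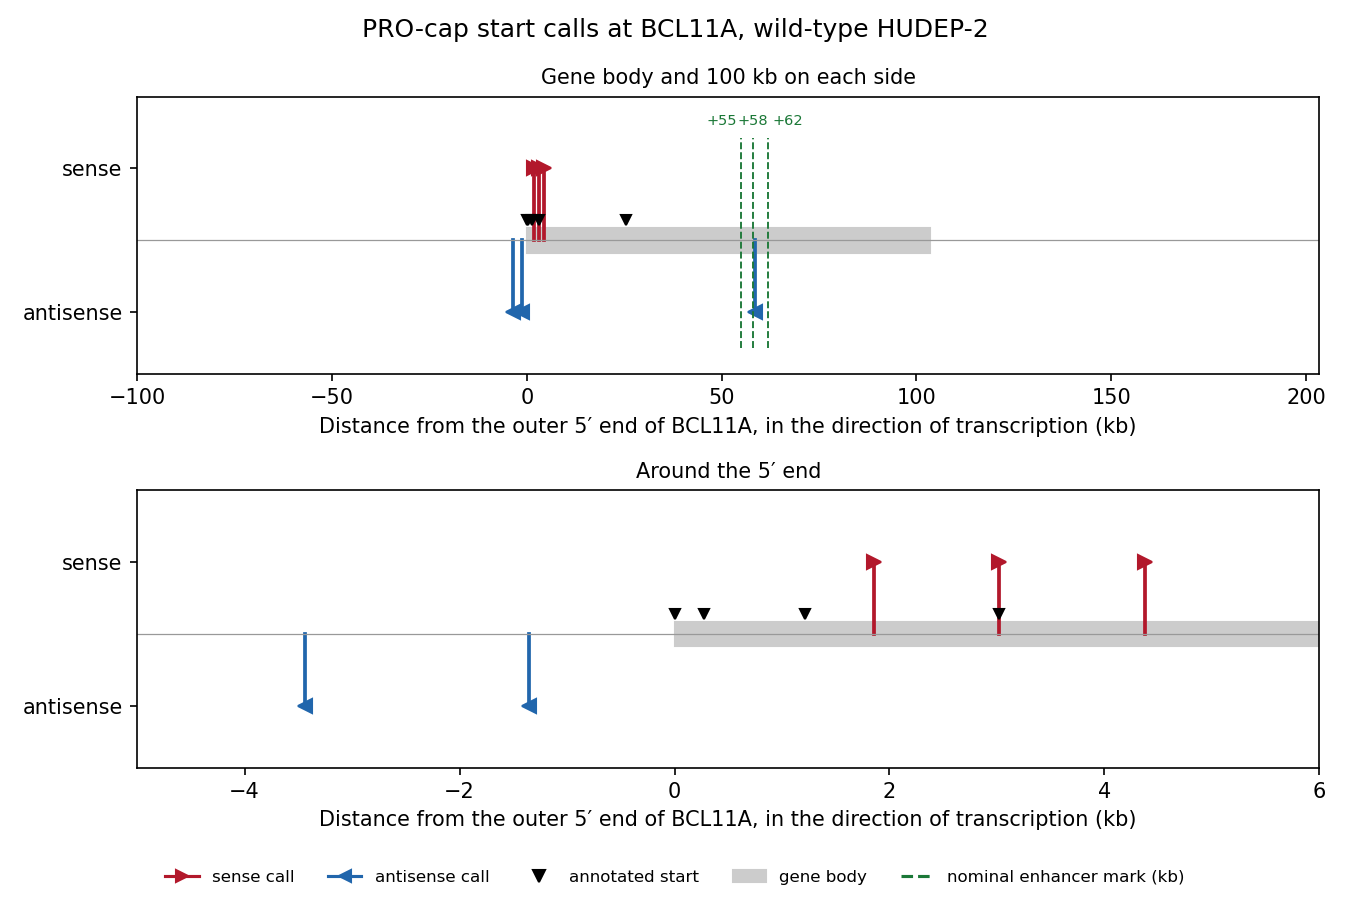
Start calls at BCL11A by distance from the outer 5′ end in the direction of transcription (kb), sense above and antisense below the line, over the whole window and around the 5′ end. Black triangles are the 5 annotated starts, the grey bar is the gene body and dashed lines are nominal marks at +55, +58 and +62 kb. The 3 sense calls sit between 1.85 and 4.37 kb, 2 antisense calls sit upstream, and the third antisense call stands alone at 58.63 kb.

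Upstream of the gene, 2 calls pointed away from it. They lay on the forward strand at 60555278 and 60557364, which is 1354 and 3440 bp outside the outer 5′ end, in sequence where the gene table places no gene. The nearer was 3206 bp from the closest sense call, so that the promoter region read as sense and antisense starts facing away from each other across a gap of more than 3 kb, with none of the annotated starts in that gap called. At least 2 antisense calls in the 5 kb upstream were found for 5.01% (4.68 to 5.36) of protein-coding genes. At least 3 sense calls in the first 5 kb were found for 1.14% (0.984 to 1.32), namely 180 genes, and 28 of these (15.6%, 11.0 to 21.6) had, like BCL11A, no sense call within 500 bp of the outer 5′ end. Within 5 kb of the 5′ end, 47.7% of genes had no call. With 5 calls there, BCL11A belonged to the 4.76% (4.43 to 5.10) of genes with at least that many. These cut-offs were set at the values of BCL11A itself, so that the shares place the gene and test nothing.

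The only call deep in the gene lay 627 bp from the nominal +58 enhancer mark. It was on the forward strand, antisense to BCL11A, at 60495297, which is 58.63 kb from the outer 5′ end and 44.8 kb before the 3′ end. It stood beyond the +58 kb mark, 3.63 kb from the +55 mark and 3.37 kb from the +62 mark. No call lay within 1 kb of the +55 or the +62 mark. The names of the sites are rounded to whole kb. The sites are fixed, but the place of a nominal mark depends on the start it is counted from. Counted from the annotated start at 60553654 the call was at 58.36 kb, 357 bp from the +58 mark, and from the start at 60552714 at 57.42 kb. Counted from the called start at 60550907 it was at 55.61 kb, 610 bp from the +55 mark. From each of the 3 outermost annotated starts the nearest mark was +58. No genome sequence or site coordinates in hg38 were used, so that the sequence under the call and its place within the hypersensitive site are not analysed here.

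This intragenic antisense call had no partner. The nearest call on any strand was the innermost sense call of the promoter region, 54.3 kb away. No divergent pair (opposite-strand calls 0 to 300 bp apart that point away from each other) and no convergent pair (1 to 300 bp apart, facing each other) was found anywhere in the window, and the count of divergent pairs stayed at 0 with partners up to 1000 bp apart. Across the series 44.0% (43.4 to 44.6) of calls had a divergent partner within 300 bp, and 29.3% (28.2 to 30.4) of the 6476 distal calls (more than 1000 bp away from all gene ends). Single antisense calls deep in genes were not particular to BCL11A. Of 2019 calls more than 10 kb from the 5′ end and inside 1 protein-coding gene of known strand, 979 (48.5%, 46.3 to 50.7) were antisense, and 607 of these 979 had neither kind of partner. An antisense call with no other call within 50 kb, as in BCL11A, made up 11.5% (9.69 to 13.7) of the 979, and the share over all calls was 6.43% (6.14 to 6.73). A partner start below the unknown threshold of the calling would not be listed.

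The rest of the locus was without a call. Between the promoter region and the intragenic antisense call 54.3 kb of the gene held none, although the annotated start at 60528535 lies there, and none lay between that call and the 3′ end. Downstream of the gene the window holds LOC124906010, listed as protein-coding, the noncoding genes LOC102724142 and MIR4432HG, the microRNA gene MIR4432 and the pseudogene RNU1-32P, and upstream it holds the pseudogene RN7SL361P. None of these 6 genes held a call. MIR4432, RNU1-32P and RN7SL361P span only 84, 159 and 289 bp. The share of like genes without a call was not counted, so that nothing is drawn from their lack of one. The next call beyond the upstream calls was that of PAPOLG, which encodes a poly(A) polymerase, on the first base of that gene (60756268), 202.3 kb from BCL11A. On the other side the next listed call was at 58241436, 2253.9 kb from the intragenic antisense call, at an end of FANCL, which encodes a ubiquitin ligase of DNA repair. The 6 calls of the window were near the middle of what such windows hold. Windows built in the same way around all protein-coding genes held a median of 5 calls, and 44.3% (43.6 to 44.9) of them held at least 6. Around the 2811 genes within 1.5 times the length of BCL11A the median was 4, and 39.1% (37.3 to 40.9) held at least 6.

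All 4 calls in the gene were distal in the same sense. At least 4 such inside calls were found in 270 of 19821 protein-coding genes (1.36%, 1.21 to 1.53), while 88.5% held none. Among the genes of like length the share with at least 4 was 2.99% (2.42 to 3.68), and their median was 0. Of the 270 genes, 150 (55.6%, 49.6 to 61.4) had no call within 500 bp of either gene end that pointed into the gene, and 65 (24.1%, 19.4 to 29.5) had no divergent pair among their inside calls. BCL11A was in both groups. For the 3 calls of the promoter region the term follows from their distance to the outermost annotated end alone. In 23 other protein-coding genes the number of inside calls and pairs and the lack of a start at the gene ends were those of BCL11A. BCL11A spans 103.4 kb, and the 5 nearest in length were ZBTB40 with 102.2 kb, HK1, PTCH1, TXNRD1 and GNAS. HK1, PTCH1, TXNRD1 and GNAS each had a call at another annotated start, as BCL11A did, but no call within 5 kb of the outer 5′ end.

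**Figure D2:**
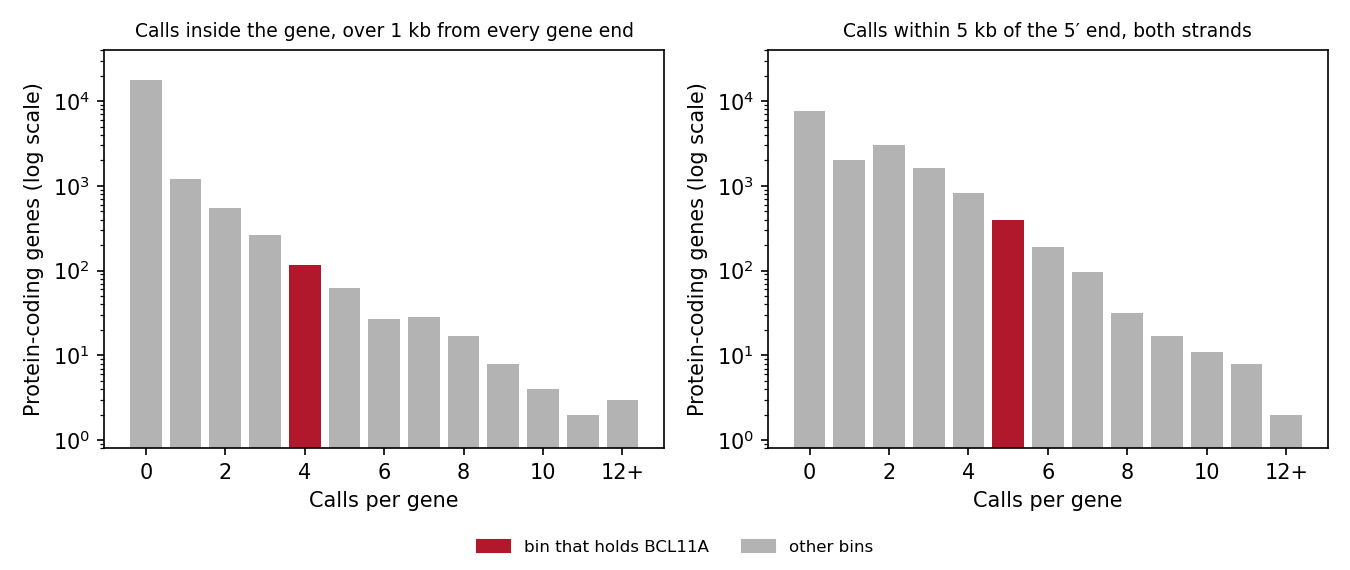
Number of protein-coding genes (log scale) by calls inside the gene and more than 1 kb from every gene end (left, 19821 genes) and by calls within 5 kb of the outer 5′ end (right, 15813 genes of known strand). The bins that hold BCL11A, at 4 and 5 calls, are in red, and most genes lie at lower counts.

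The calls of BCL11A were set beside those of its paralogue and of listed regulators, partners and targets. A start was counted here when a call within 500 bp of either gene end pointed into the gene, which was so for 41.4% (40.7 to 42.1) of 19821 protein-coding genes. BCL11B, the paralogue known from T cells and neurons, held no call in its 102.9 kb, and its nearest sense call was more than 200 kb outside the gene. Of 15 listed factors of the BCL11A enhancer or promoter and other regulators, 10 had a start (66.7%, 41.7 to 84.8). Among them were KLF1, which activates BCL11A, with a call 3 bp into the gene, GATA1 with one 1 bp outside it, and MYB with one 87 bp inside. LMO2, TCF3, NFIX, ATF4, IGF2BP1, EIF2AK1 and SPOP also had one. LMO2, IGF2BP1 and EIF2AK1 have no strand in the promoter table, so that their calls are not known to be sense. Of the 12 factors with a strand there, 7 had a sense call within 500 bp of the outer 5′ end. Over all protein-coding genes of known strand the share was 42.9% (42.2 to 43.7).

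TAL1, LDB1, NFIA, HIC2 and LIN28B had no start at a gene end. TAL1 and LDB1, which sit with GATA1 in the complex at erythroid enhancers, resembled BCL11A in that their nearest sense calls lay inside the gene, at 1073 and 995 bp, and that both had a call within 500 bp of an annotated start. So had NFIA, whose nearest sense call was 969 bp inside. In the antisense direction BCL11A had no call in the first 5 kb of the gene and 2 in the 5 kb upstream, whereas TAL1 and LDB1 had 3 each in the first 5 kb and none in the 5 kb upstream. HIC2, a repressor of BCL11A in fetal cells, and LIN28B, a fetal regulator that limits BCL11A protein, held no call. Divergent pairs inside the gene were found in LDB1, MYB, NFIA and NFIX, which held 4, 4, 5 and 8 inside calls. LMO2 held 5 inside calls without a pair. Of all 270 protein-coding genes with at least 4 inside calls, 24.1% (19.4 to 29.5) had no such pair.

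**Figure D3:**
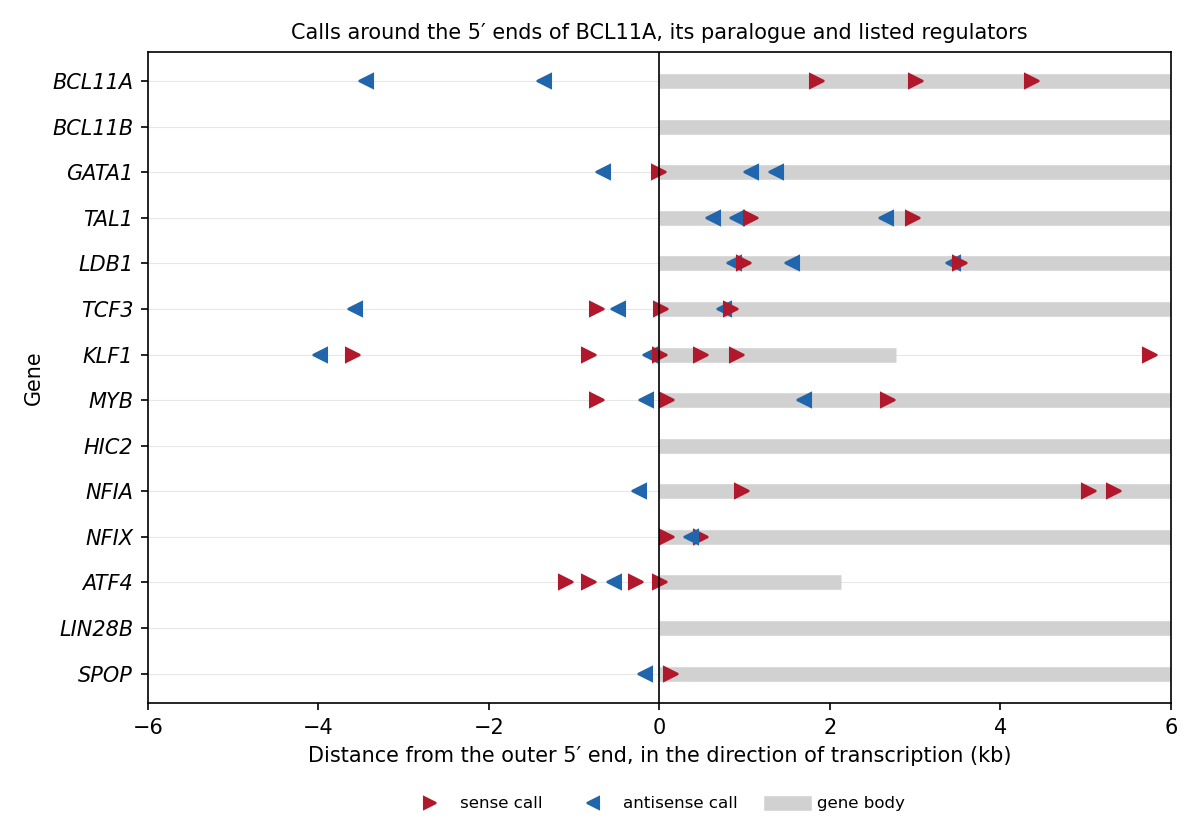
Calls within 6 kb of the outer 5′ end of BCL11A (top), BCL11B and the 12 listed regulators with a strand in the promoter table, by distance in the direction of transcription (kb), with sense calls in red, antisense calls in blue and the gene body in grey. BCL11A has no call between 1354 bp outside and 1852 bp inside its end, GATA1 and KLF1 have sense calls within 3 bp of theirs, and BCL11B, HIC2 and LIN28B have none.

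Of 20 corepressors and partners, 17 had a start (85.0%, 64.0 to 94.8). They included CHD4, HDAC1, HDAC2, MTA2, RBBP4, RBBP7, MBD2, MBD3, GATAD2A and GATAD2B of the NuRD remodelling complex, and KDM1A, a histone demethylase, with its partner RCOR1. NCOR1, SIN3A, the DNA methyltransferase DNMT1, SOX6, which cooperates with BCL11A, and ZBTB7A, the other main repressor of gamma globin, complete them. CHD3, MTA1 and MTA3 had none, and of these CHD3 alone held a call, a single one. SIN3A held 9 inside calls with 2 divergent pairs, and SOX6, a gene of 772.0 kb, held 4 without a pair. None of the 4 globin genes listed as targets, the fetal genes HBG1 and HBG2 and the embryonic genes HBE1 and HBZ, held a call (0%, 0 to 49.0). HBG1 and HBG2 are near-identical copies, so that reads from them may not have been assigned to either and their lack of a call is uncertain. Over all 40 listed genes 27 had a start (67.5%, 52.0 to 79.9). The list was chosen with results of these data known and is described without a test.

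Defining markers of the labelled cell type were called. All 7 listed erythroid genes had a start (64.6 to 100), namely GATA1, KLF1, ALAS2, AHSP, TFRC, EPOR and HBB. AHSP and HBB have no strand in the promoter table, so that their calls are not known to be sense. The other 5 all had a sense call within 500 bp of the outer 5′ end, as had 42.9% (42.2 to 43.7) of protein-coding genes of known strand. Of 14 markers of B cells, dendritic cells, neurons and stem cells, the other cells in which BCL11A is known to be expressed, 2 had one (14.3%, 4.01 to 39.9). These were SYN1, a neuronal gene, and HLF, a stem cell factor. Of the 11 of these markers with a strand in the promoter table, 4 had a sense call within 500 bp of an annotated start. The share on this measure over all protein-coding genes of known strand was 47.0% (46.3 to 47.8). The 4 add TCF4, a dendritic cell factor that held 3 calls, and TUBB3, a neuronal tubulin gene with its nearest sense call 1419 bp inside. No B cell marker held a call.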

How the data were processed

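PRO-cap was measured in 2 biological replicates of wild-type HUDEP-2 cells. Nuclear run-on RNA with biotin-labelled nucleotides was captured on beads, given adaptors there and turned into amplified cDNA for sequencing, per the labels' protocols. BWA 0.7.16a, Picard, SAMtools 1.17, deepTools 3.5.4 and hg38 are named in the submitters' processing notes. For the caller's threshold and for the pooling of replicates the sources used here give nothing. The authors deposited 1 list of called positions per strand. Its position columns hold other values than signal, namely 1-base coordinates in hg38, per the file contents. The score that the authors deposited is 0 on all lines. Depth is therefore unknown and intervals are 95% Wilson intervals that cover counting error only.

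Positions are printed 1-based. Genes came from the RefSeq gene table of GRCh38.p14, the same build, without entries on other scaffolds (19821 protein-coding genes on chromosomes 1 to 22 and X). Strand, annotated starts and sequences came from the RefSeq promoter table, which held 15813 of them. Distances run from the outer 5′ end of the gene. A start lay within 500 bp, a divergent partner within 300 bp, an inside call more than 1000 bp from every gene end, and an enhancer mark within 1 kb. Genes were named if they were BCL11A, lay in or next to the window, stood on the lists by role, or were the 5 nearest in length with the same inside calls, pairs and lack of a start. A few items of the lists are not reported here and not counted. The members and lists were chosen with earlier results of these data known, and shares set at the values of BCL11A and the initiator counts were added after its values were seen. No test was run, since 1 group without values per replicate allows none. The finding of starts, distances and pairs was tested on planted calls. Starts were planted only inside the 500 bp limit, so that their part could show a missed start but no false start. The calling itself, the enhancer marks and the background shares were not tested in this way. Python 3.11.15, pandas 2.3.3 and scipy 1.17.1 were used.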

Additional observations from a re-analysis of the deposited data

How the results depend on the processing

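Of 24 alternatives over 7 results, 19 left the value within 1.5 times the main one. A sense call at the BCL11A 5′ end was absent within 200, 500 and 1000 bp, and 1 was counted within 2000 bp or where the annotated start 3017 bp inside the gene was taken as the end. The number of calls near an enhancer mark was 1 within 1 kb and 2000 bp, 0 within 500 bp, and 0 counted from the annotated start 25389 bp inside the gene. Counted from the start 3017 bp inside, the call was still near a mark, but that mark was +55. The share of protein-coding genes with as many inside calls as BCL11A was 1.36% over all genes and 2.99% among genes of like length. With inside calls taken more than 2000 bp from every gene end, BCL11A held 3, and the share was 1.94% over all genes. Flanks of 50 and 200 kb left 6 calls, and pair distances of 150, 500 and 1000 bp left 0 pairs. No replicate could be left out and no paired analysis was possible because the lists name no replicate and the series holds 1 group. The unknown threshold of the calling limits every statement on a position without a call.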
